A study of Schmidtea mediterranea with 5 samples.

Results

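In droplet RNA sequencing, every droplet carries its own barcode, and most droplets receive no cell but only RNA that floats in the suspension. A cell type that bursts during dissociation, or that yields few RNA molecules, can therefore be missing among the barcodes counted as cells while its transcripts are still found in the other droplets. To ask which transcripts of dissociated planarian tissue have this property, contigs were sought that were richer in empty droplets than in cells in every library. Empty droplets were barcodes with 1 to 99 unique molecular identifiers (UMIs, each standing for 1 captured RNA molecule). Cells were barcodes with 1000 or more UMIs and 200 to 2500 genes, where a gene is a contig of the planarian transcriptome with a UMI. The level of a contig was given in CPM, its UMIs per 1000000 UMIs of all droplets in the class. A contig was kept if it had 50 or more empty-droplet UMIs in all and, with 1 CPM added to both levels, was at least 3-fold higher in empty droplets than in cells in each of the 5 libraries. Of 28040 contigs, 10457 had enough empty-droplet UMIs, and 1 met the rule, dd_Smed_v6_76_0, called 76_0 below (0.00956% of the contigs with enough UMIs). The sources used here give no gene name, protein or function for 76_0.

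The libraries came from the freshwater planarian Schmidtea mediterranea, a flatworm that regrows missing body parts from dividing stem cells called neoblasts. Each was 1 library of dissociated and sorted cells from fragments of the region behind the pharynx, pooled from many asexual CIW4 animals, so the 5 groups have 1 library each and no comparison between groups has a replicate. The groups were fragments at 0 hours post-amputation (hpa), fragments with anterior-facing wounds at 6 hpa, fragments with anterior-facing wounds at 18 hpa, fragments with posterior-facing wounds at 18 hpa, and fragments with anterior-facing wounds at 18 hpa from animals fed unc-22 double-stranded RNA in 4 feedings, the control for RNA interference. All were sorted for Hoechst-stained, X-ray-insensitive cells, a gate that leaves out most dividing cells. The labels give low propidium iodide, a dye that enters dead cells, for the libraries at 0 and 18 hpa, and medium and high calcein for that at 6 hpa. The study's methods list propidium iodide for the 6 hpa sample too and do not list it for the unc-22 RNAi sample, so the stains of these samples are uncertain. Time and sort cannot be told apart at 6 hpa.

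The libraries held 21746895 to 37981205 UMIs. Empty droplets numbered 331758 to 546031 a library and held 1077295 to 2189162 UMIs, and cells numbered 3052 to 6935 and held 7274118 to 25152496 UMIs. The 6 hpa library stood apart, since 44.1% of its UMIs lay in 65563 barcodes of 100 to fewer than 300 UMIs, which are neither empty droplets nor cells by the rule, against 0.261% to 2.19% in the other libraries. It had 1615 barcodes of 10 to 49 UMIs, against 63777 to 75218 in each of the others. The empty droplets of 6 hpa are therefore not a class like those of the other libraries. Any pair of libraries shared 0 to 11 cell barcodes. A pair of very abundant contigs, dd_Smed_v6_4_1 and dd_Smed_v6_7_0, together made up 16.7% to 65.8% of the UMIs of empty droplets and 10.5% to 25.3% of those of cells, so that a level in CPM depends on how much of the total they take. The 8 mitochondrial contigs took 4.74% to 5.94% in empty droplets and 9.57% to 14.3% in cells. As a summed list they had a median ratio of empty droplets over cells of 0.496 across the libraries.

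Contig 76_0 was a rare transcript in both classes, but its level in empty droplets lay above that in cells in each library. At 0 hpa it had 11.2 CPM in empty droplets (20 UMIs) and 1.76 in cells (35 UMIs), a ratio of 4.42 with 1 added. At 6 hpa it had 36.2 CPM in empty droplets (39 UMIs) and 3.71 in cells (27 UMIs), a ratio of 7.90. At 18 hpa in anterior-facing wounds it had 16.0 CPM in empty droplets (34 UMIs) and 0.784 in cells (13 UMIs), a ratio of 9.53. With cells taken from 500 UMIs up, the ratio in this library was 4.41 (48 UMIs in cells, 35 of them in 1 barcode), below that of 4.44 at 0 hpa. The level was lowest at 0 hpa and highest at 6 hpa in empty droplets. At 18 hpa in posterior-facing wounds it had 25.5 CPM in empty droplets (52 UMIs) and 1.67 in cells (32 UMIs), a ratio of 9.91. In the 18 hpa library of unc-22 RNAi animals it had 17.8 CPM in empty droplets (39 UMIs) and 0.914 in cells (23 UMIs), a ratio of 9.83. Over the 5 libraries the level averaged 21.3 ± 9.77 CPM in empty droplets and 1.77 ± 1.17 in cells (SD, n = 5). The contig was chosen by these values, so they are given with no test.

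**Figure D1:**
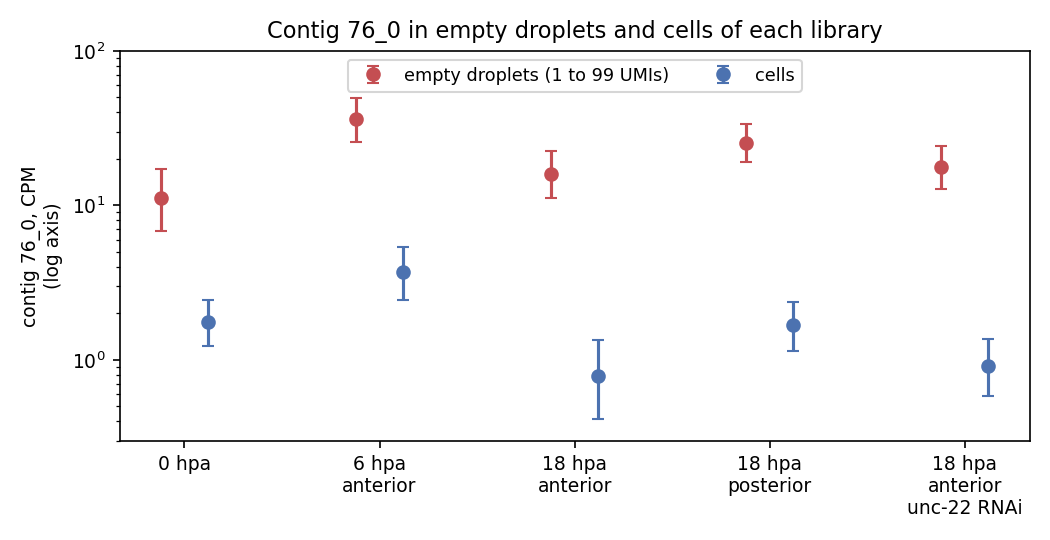
Level of contig 76_0 in CPM (log axis) in empty droplets of 1 to 99 UMIs (red, left of each pair) and in cells (blue, right) of each library. Points are the levels of 1 library and bars their 95% Poisson intervals for counting error; the empty-droplet points lie between 11.2 and 36.2 and the cell points between 0.784 and 3.71.

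The order of the levels over the groups could not be resolved between neighbours in empty droplets. From high to low it ran from 6 hpa (exact 95% Poisson interval 25.7 to 49.5 CPM) to posterior-facing wounds at 18 hpa (19.0 to 33.4), unc-22 RNAi (12.7 to 24.4), anterior-facing wounds at 18 hpa (11.1 to 22.4) and 0 hpa (6.83 to 17.3), and the intervals of neighbours overlapped at each step. Such an interval covers only the error of counting, and not the unlike make-up of the empty droplets at 6 hpa. In cells the intervals were 1.22 to 2.44 at 0 hpa, 2.45 to 5.40 at 6 hpa, 0.417 to 1.34 in anterior-facing wounds at 18 hpa, 1.14 to 2.36 in posterior-facing wounds at 18 hpa and 0.580 to 1.37 in unc-22 RNAi. With 1 library a group, no difference between times or wound sides was tested.

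On the scale of all UMIs other than those of 4_1, 7_0 and the 8 mitochondrial contigs, 76_0 was also higher in empty droplets than in cells in each library. The ratio on this scale with 1 CPM added was 5.46 at 0 hpa, 17.5 at 6 hpa, 12.3 in anterior-facing wounds at 18 hpa, 11.9 in posterior-facing wounds at 18 hpa and 11.01 in unc-22 RNAi. The 6 hpa level on this scale was 124 CPM in empty droplets and 6.14 in cells. When empty droplets at 6 hpa were taken up to fewer than 300 UMIs, an alternative chosen after the data were seen, the ratio at 6 hpa over all UMIs was 5.97 and 76_0 remained the contig that met the rule.

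Single libraries differed in how many contigs lay at 3-fold. Taken alone, the 0 hpa library had 0.803% of contigs at 3-fold, the 6 hpa library 0.325%, anterior-facing wounds of 18 hpa 1.24%, posterior-facing wounds 0.689% and unc-22 RNAi 3.33%. Leaving 1 library out of the rule let in 8 further contigs over the 5 libraries. Their ratio in the library left out was under 3-fold by that choice. It ran from 0.879 to 2.68, the highest being dd_Smed_v6_51_1 at 0 hpa.

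The contigs just outside the rule were few. At 2-fold in place of 3-fold, 6 contigs were kept (0.0574%), so 5 lay between the limits, with smallest ratios of 2.68 for 51_1, 2.26 for dd_Smed_v6_321_0, 2.25 for dd_Smed_v6_829_0, 2.24 for dd_Smed_v6_7545_0 and 2.12 for dd_Smed_v6_9_0, beside 4.42 for 76_0 inside it. The median over the 10457 contigs of the smallest ratio was 0.473. For 51_1 the empty droplets held 10, 25, 16, 40 and 22 UMIs and the cells 29, 14, 14, 30 and 21 UMIs, in the order 0 hpa, 6 hpa, 18 hpa anterior-facing, 18 hpa posterior-facing and unc-22 RNAi. For dd_Smed_v6_321_0 the empty droplets held 6, 17, 5, 20 and 12 UMIs and the cells 6, 9, 8, 9 and 7 UMIs in the same order. Both were rare in cells, as 76_0 was, while dd_Smed_v6_829_0 had 3436 UMIs in empty droplets and 4845 in cells over all libraries.

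By the size of barcodes, the level of 76_0 varied widely between libraries outside cells. The median library had 8.66 CPM in barcodes of 1 UMI (range 2.51 to 58.3), 5.62 in those of 2 to 9 (0 to 85.8), 22.3 in those of 10 to 49 (12.4 to 47.4) and 17.1 in those of 50 to 99 (5.51 to 23.8). In larger barcodes that were not cells, the median library had 4.33 CPM from 100 to under 200 UMIs (0 to 24.1), 36.3 from 200 to under 300 (0 to 106.3), 13.4 from 300 to under 500 (0 to 33.5) and 8.26 from 500 to under 1000 (0 to 105.4). From 100 to under 200 UMIs 2 of the 5 libraries held no UMI of 76_0, and in each of the next 3 classes 1 library held none. Among barcodes of 1000 or more UMIs the median library had 11.9 CPM where fewer than 200 genes were found (0 to 57.2, with 2 libraries at 0), 1.67 in cells (0.784 to 3.71) and 0.900 where more than 2500 genes were found (0.748 to 6.54). The 6 hpa library held 197 of the 200 UMIs of 76_0 from 100 to under 200 UMIs and 78 of the 80 in the large barcodes of few genes. From 100 to under 300 UMIs it held 250, against 1 at 0 hpa, 2 and 8 at 18 hpa in anterior-facing and posterior-facing wounds and 1 in unc-22 RNAi. Sums over the libraries in these classes thus mostly describe 6 hpa. The highest levels at 18 hpa rested on few barcodes, such as 106.3 CPM from 6 UMIs in posterior-facing wounds.

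**Figure D2:**
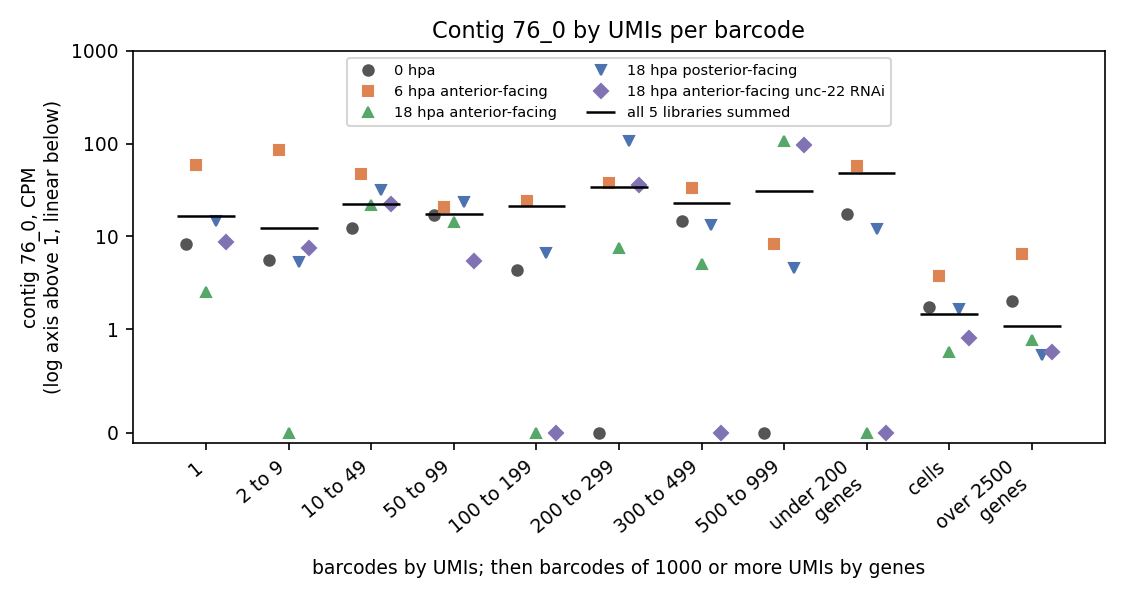
Level of contig 76_0 in CPM (log axis above 1, linear below) by UMIs per barcode, from 1 UMI to under 1000 UMIs, and then in barcodes of 1000 or more UMIs with under 200 genes, 200 to 2500 genes (cells) and over 2500 genes. Points are libraries and black lines the 5 libraries summed. The lines lie between 12.4 and 47.9 in each class but cells (1.48) and barcodes of over 2500 genes (1.08). In the classes from 100 to under 300 UMIs and of few genes they mostly follow the 6 hpa library. From 100 to under 200 UMIs and in the class of few genes, 2 other libraries are at 0.

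Barcodes of 100 to under 1000 UMIs enter neither side of the rule, and in them the level of 76_0 showed no common direction between smaller and larger barcodes. UMIs were summed per library over smaller barcodes, of 100 to under 300 UMIs, and larger ones, of 300 to under 1000. In the smaller barcodes 76_0 had 1, 250, 2, 8 and 1 UMIs at 0 hpa, 6 hpa, 18 hpa anterior-facing, 18 hpa posterior-facing and unc-22 RNAi, and in the larger barcodes it had 1, 32, 36, 2 and 33 UMIs in the same order. The level was higher in the smaller barcodes at 6 hpa (26.1 against 14.9 CPM) and in posterior-facing wounds (22.2 against 6.86), and lower in them in anterior-facing wounds at 18 hpa (2.41 against 68.2) and in unc-22 RNAi (11.2 against 81.5). These counts did not pass the filter on low values, so 76_0 was not among the 3534 contigs tested, of which 20.9% were called higher and 22.8% lower. With every contig of 1 UMI or more tested, the log2 difference of 76_0 was -0.18 ± 1.18 (SE, edgeR quasi-likelihood test, adjusted p = 0.954), where 5.15% of contigs were called higher and 5.46% lower. Without the 6 hpa library this difference was -1.91 ± 0.506 (SE, edgeR adjusted p = 0.00413). In that fit 595 of 20147 contigs were called higher and 1195 lower. The sign for 76_0 was positive without the library of anterior-facing wounds at 18 hpa (0.74 ± 0.387, SE) and without that of unc-22 RNAi (0.15 ± 1.38, SE).

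Those 2 libraries carried most of their 76_0 UMIs of that class in a single barcode each. Over the 5 libraries, 812 UMIs of 76_0 were found in 635 barcodes, of which 596 held 1 UMI, 34 held 2 to 4 and 5 held 5 or more. The 5 richest barcodes held 143 of the 812 UMIs (17.6%). A barcode at 6 hpa held 67 UMIs of 76_0 among 2949 UMIs and 164 genes. One in anterior-facing wounds at 18 hpa held 35 among 252 genes (6.93% of its UMIs), and one in unc-22 RNAi held 29 among 510 UMIs and 135 genes. A further barcode at 6 hpa held 6 UMIs of 76_0 among 311 UMIs and 48 genes, and one in posterior-facing wounds held 6 among 276 UMIs and 157 genes. None of the 5 was an empty droplet or a cell by the rule: 4 had too few UMIs for a cell, and the richest had too few genes. At 0 hpa no barcode held more than 3 UMIs of 76_0, and no cell of any library held more than 3. Without these 5 barcodes, chosen after the data were seen for their 76_0, the log2 difference between the smaller and the larger barcodes was 1.44 ± 0.455, and with library totals in place of trimmed-mean scaling it was 0.78 ± 0.501 (SE, 5 libraries, values with no test).

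The same contigs recurred beside 76_0 in these barcodes. With 10 or more UMIs over the 5 barcodes, a UMI in 3 or more of them and a level 100-fold over that of cells, 6 other contigs qualified, a selection made after the values were seen. Contig dd_Smed_v6_274_0 had 29, 2, 24, 3 and 23 UMIs in the barcodes with 67, 6, 35, 6 and 29 UMIs of 76_0. Contig dd_Smed_v6_321_0 had 33, 6, 23, 0 and 10 UMIs, and 51_1 had 19, 4, 22, 2 and 15 UMIs. Of their UMIs within the 5 barcodes, these 3 contigs had most in the same 3 barcodes as 76_0. Contigs 51_1 and dd_Smed_v6_321_0 are also the contigs nearest to the rule. Contig dd_Smed_v6_51_0 had 9, 2, 0, 2 and 14 UMIs, dd_Smed_v6_85_0 had 9, 1, 4, 0 and 11 UMIs, and dd_Smed_v6_159_0 had 11, 0, 7, 0 and 6 UMIs. Together with 76_0 the 7 contigs made up 434 of the 4551 UMIs of the 5 barcodes. As a share of the UMIs outside 4_1, 7_0 and the mitochondrial contigs, they made up 44.0% and 36.2% of the barcodes at 6 hpa, 28.6% in anterior-facing wounds at 18 hpa, 7.47% in posterior-facing wounds and 44.8% in unc-22 RNAi. Contigs 51_0 and 51_1 carry the same transcript number and may be near copies, so their separate counts are uncertain. None of the 7 is named in the sources used here.

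**Figure D3:**
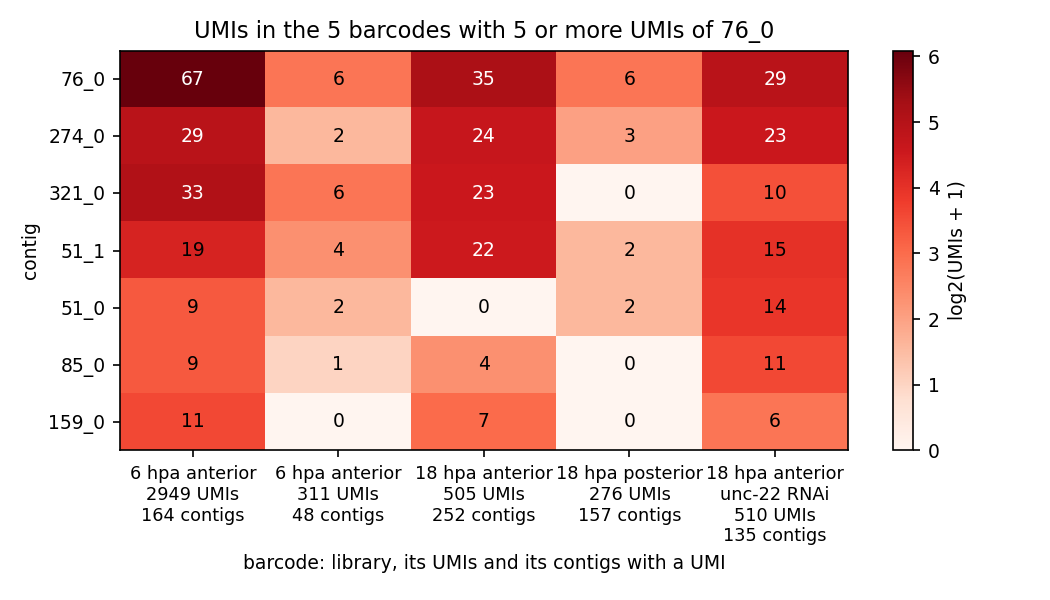
UMIs of 76_0 and of the 6 contigs that shared its richest barcodes (rows) in the 5 barcodes with 5 or more UMIs of 76_0 (columns, with the library, the UMIs and the number of contigs found). Colour is log2(UMIs + 1); dd_Smed_v6_274_0 and 51_1 were found in all 5 barcodes, and 76_0 had 67, 6, 35, 6 and 29 UMIs.

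The 7 contigs had 5274 to 31422 CPM in the 5 barcodes summed, against 0.193 to 1.48 CPM over all cells. In the rule's own droplets, which exclude these 5 barcodes, each of the 6 other contigs was higher in empty droplets than in cells in 5 of 5 libraries and at 3-fold in 3 or 4 of them. Among the 11837 contigs with 30 or more empty-droplet UMIs, 2.19% were higher in empty droplets in all 5 libraries and 0.355% were at 3-fold in 3 or more. Since a low level in cells was part of how the 6 were selected, these shares are a description. The median ratio over libraries was 3.56 for dd_Smed_v6_274_0, 5.07 for dd_Smed_v6_321_0, 6.02 for 51_1, 3.99 for 51_0, 3.64 for 85_0 and 3.50 for dd_Smed_v6_159_0, against 9.53 for 76_0.

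With 5 or more UMIs of the 6 contigs together, there were 10 barcodes. They include the 5 above, in which the 6 contigs were selected, so only the other 5 add to them. Of these, 3 held 76_0, namely 1 UMI in a barcode of 148 UMIs at 0 hpa, 3 UMIs in one of 224 UMIs at 6 hpa and 1 UMI in a cell of 3265 UMIs at 6 hpa. The remaining 2, a barcode of 125 UMIs at 6 hpa and a cell of 1570 UMIs in posterior-facing wounds, held none. Every library thus had at least 1 barcode with several UMIs of these contigs, and 2 of the 10 were counted as cells.

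The richest barcodes held 0 to 7 UMIs of each list of marker contigs of the main planarian cell types, too few in most lists to place them. Of their 4551 UMIs, 0 belonged to the 34 cilium contigs, 0 to the 25 neuron contigs and 0 to the 4 secretory contigs. A count of 0 was taken to allow up to 3 UMIs (659.2 CPM), a rounded limit and not an exact interval. The levels of the same lists over all cells were 276, 295 and 134 CPM, each under that limit. A count of 0 in any 1 list thus does not tell its level from that of the average cell. The 18 muscle contigs had 3 UMIs (659.2 CPM against 1061 in cells). The 8 epidermal lineage contigs had 7 (1538 against 20617), a level far under that of cells. The 8 neoblast contigs had 3 UMIs (659.2 CPM against 463 in cells), the 5 intestine contigs had 1 (219.7 against 112), and the 5 parenchyma contigs had 3, all from 1 contig (659.2 against 58.9). Mitochondrial contigs had 474 UMIs (104153 CPM against 108704 in cells). Per barcode the mitochondrial share was 9.80% and 13.2% at 6 hpa, 1.98% in anterior-facing wounds at 18 hpa, 3.99% in posterior-facing wounds and 24.1% in unc-22 RNAi. The share of 4_1 and 7_0 was 76.6% and 68.2% at 6 hpa and 18.4%, 33.0% and 28.6% in the others. No cell type is therefore given to these barcodes.

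In barcodes of 50 to 99 UMIs no barcode held more than 1 UMI of 76_0, but 4 of the 5 libraries had only 1 or 2 UMIs of it there. The variance of the count per barcode was 0.998 to 0.9996 times that of binomial sampling, a ratio that so few UMIs hold near 1. In the 65563 barcodes of 100 to under 300 UMIs at 6 hpa, 250 UMIs lay in 233 barcodes with at most 3 in 1, and the variance was 1.14 times binomial. The highest value of this ratio was 4.75, in barcodes of that size from posterior-facing wounds, which include a barcode with 6 UMIs. In no barcode of 20 to under 300 UMIs did 76_0 reach 20% of the UMIs.

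Among cells, 76_0 was found in 116 of 23946 (0.484%), in 33 at 0 hpa, 23 at 6 hpa, 11 and 29 at 18 hpa in anterior-facing and posterior-facing wounds and 20 in unc-22 RNAi. These cells had a median of 3167 UMIs at 0 hpa, against 3837 in the cells without it, 2124 against 1974 at 6 hpa, 2879 against 4090 in anterior-facing wounds at 18 hpa, 3093 against 4048 in posterior-facing wounds and 3596 against 3643 in unc-22 RNAi. When the cells were grouped into 37 clusters without using 76_0 or the 5 contigs nearest to the rule, UMIs of 76_0 occurred in 31 clusters. Cluster 23, with 337 cells, had the highest level, 26.3 CPM (20 UMIs, exact 95% Poisson interval 16.1 to 40.6), where 17 of 337 cells held it. It was the highest cluster in 2 of the 4 libraries with 20 or more cells of it. The other 23609 cells had 1.26 CPM (110 UMIs, interval 1.03 to 1.52), and 0.419% of them held it. The cells of cluster 23 had a median of 2123 UMIs, and 1 UMI in a cell can also come from free RNA, whose part was not tested.

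**Figure D4:**
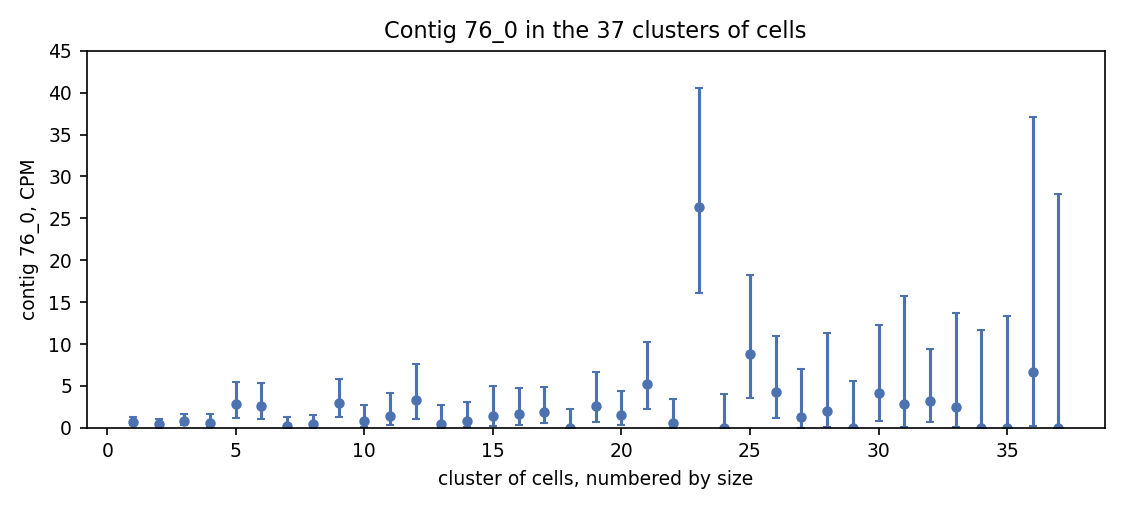
Level of contig 76_0 in CPM in each of the 37 clusters of cells, numbered from the largest to the smallest. Points are the level over the cells of all 5 libraries and bars their 95% Poisson intervals for counting error; cluster 23 had 26.3 CPM, and the others had 0 to 8.83.

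Cluster 23 was led by contigs dd_Smed_v6_1230_0, dd_Smed_v6_3283_0 and dd_Smed_v6_16102_0. Of the marker lists, 20 of 34 cilium contigs and 12 of 25 neuron contigs led in it (2-fold or more over the median cluster), with summed levels of 2389 and 1516 CPM against 276 and 295 over all cells. The level of 76_0 in its cells was 39.9 CPM at 0 hpa (10 UMIs), 40.1 in anterior-facing wounds at 18 hpa (6 UMIs), 17.9 in posterior-facing wounds (3 UMIs) and 5.40 in unc-22 RNAi (1 UMI), and at 6 hpa its 4 cells held none. The other cells of these libraries had 1.27, 0.426, 1.53 and 0.881 CPM, in the order 0 hpa, 18 hpa anterior-facing, 18 hpa posterior-facing and unc-22 RNAi. With its 1 UMI, the interval in unc-22 RNAi was 0.137 to 30.1. Cluster 23 was picked as the highest by these same UMIs, so the levels are given with no test. Of the contigs that shared the richest barcodes, cluster 23 held 4 UMIs of 51_1 and 1 of dd_Smed_v6_321_0 and none of dd_Smed_v6_274_0, 51_0, 85_0 and dd_Smed_v6_159_0. The ratio of the highest over the median cluster for 76_0 with 10 CPM added was 3.18, and 42.3% of the 1259 contigs with 100 to 160 UMIs in cells had a larger one, so a peak of this size in 1 cluster was common among contigs as rare. Other clusters with similar markers had less 76_0. Cluster 15, where 21 cilium and 13 neuron contigs led, had 1.38 CPM (2 UMIs). Clusters 25 and 28, where 20 and 19 cilium contigs led, had 8.83 and 2.03 CPM.

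A high share of mitochondrial UMIs is a usual sign of a damaged cell, and 76_0 was not called between cells that differ in it. In the 25% of cells with the highest share, 76_0 had 1.94, 11.5, 0.318, 1.57 and 0.592 CPM of non-mitochondrial UMIs at 0 hpa, 6 hpa, 18 hpa anterior-facing, 18 hpa posterior-facing and unc-22 RNAi, against 4.81, 2.96, 1.77, 3.44 and 2.81 in the 25% with the lowest share. It was thus lower in the high-share cells in 4 of 5 libraries and higher in them at 6 hpa. The log2 difference was -0.63 ± 0.613 (SE, edgeR quasi-likelihood test, adjusted p = 0.504), where 8.00% of the 12682 contigs tested were called higher and 18.7% lower. Without the 6 hpa library 76_0 did not pass the filter. With no filter 4.23% of contigs were called higher and 15.5% lower over all libraries. Without 6 hpa the difference of 76_0 was then -1.42 ± 0.475 (SE, edgeR adjusted p = 0.0359). In that fit without 6 hpa, 1823 of 25139 contigs were called higher and 4178 lower. Cells of cluster 23 lay more often in the low-share group (4 cells in the high and 77 in the low group at 0 hpa). With no filter the difference over all libraries was -0.65 ± 0.540 (SE) with that cluster and -0.16 ± 0.519 (SE) without it. The cluster was chosen for its 76_0, so the value without it is given with no test. Its part in the difference was not tested.

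The other 3 contigs between 2-fold and 3-fold differed from 76_0, since each had cells with 10 or more UMIs of it. Contig dd_Smed_v6_829_0 had 2573 CPM in cluster 21 (419 cells, 81.5% of its UMIs in cells), was highest there in 4 of the 4 libraries with 20 or more cells of it, and reached 853 UMIs in a single cell. Only 54 of the 419 cells held it, and 52 cells with 10 or more UMIs carried 91.0% of its UMIs in cells. In those 52 cells dd_Smed_v6_518_0 was also found in 52 and dd_Smed_v6_15272_0 in 44. In cluster 21, 3 of the 4 secretory contigs and 8 of the 25 neuron contigs led. Contig 9_0, itself on the parenchyma list, had 941 CPM in cluster 30 (211 cells, 55.5% of its UMIs) and was highest there in 5 of 5 libraries. Contig dd_Smed_v6_7545_0 had 54.7 CPM in cluster 15 (79 of its 109 UMIs in cells), in which 21 of 34 cilium and 13 of 25 neuron contigs led. Only 11 of the 637 cells of that cluster held it, and 3 cells carried 38 of the 109 UMIs. For 51_1 and dd_Smed_v6_321_0 the highest clusters held 4 and 3 UMIs, and no cell held more than 4.

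The ratio of dd_Smed_v6_829_0 differed from that of 76_0 in its course over the libraries. With 0 hpa first the ratio was 6.75, then 2.25 in the 6 hpa library (6 UMIs in empty droplets and 14 in cells), 4.62 in anterior-facing and 6.92 in posterior-facing wounds of 18 hpa, and 9.91 in unc-22 RNAi. Between cells of high and low mitochondrial share, dd_Smed_v6_829_0 was lower in the high-share group, by a log2 difference of -3.78 ± 0.511 (SE, edgeR adjusted p = 0.000924). Contig 9_0 was lower by -2.65 ± 0.618 (SE, edgeR adjusted p = 0.0130). Of the 12682 contigs tested, 8.00% were called higher and 18.7% lower. Of the UMIs in cells, 91.0% of those of dd_Smed_v6_829_0 lay in 52 cells and 55.5% of those of 9_0 in cluster 30. Neither contig was tested without its highest cluster. The call of 9_0 was lost with no filter on low values (edgeR adjusted p = 0.111) and with no library term (edgeR adjusted p = 0.0725). Whether either differs from 76_0 in this was not tested.

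As whole lists, no set of cell type markers reached 3-fold in all libraries. The ratio of the summed level in empty droplets over that in cells was 0.410 to 2.51 for cilium, 0.493 to 1.87 for neuron, 0.507 to 0.900 for epidermal lineage, 0.616 to 1.67 for muscle, 0.393 to 1.56 for neoblast, 0.909 to 2.28 for intestine, 1.16 to 1.77 for parenchyma and 0.597 to 1.07 for the 2 nephridia contigs. The 4 secretory contigs varied most among the cell types, with ratios of 1.23 at 0 hpa, 6.89 at 6 hpa, 6.37 and 0.861 at 18 hpa in anterior-facing and posterior-facing wounds and 3.38 in unc-22 RNAi. Parenchyma was the one cell type list with a ratio over 1 in each library. It holds 9_0, which gave 336 of its 809 empty-droplet UMIs and had itself been picked by such ratios. The ratio of this list is thus partly set by that choice, and the list was not summed without 9_0. Contig 76_0 is on none of these lists. Outside the cell types, the 5 lectin, mucin and secreted inhibitor contigs ranged from 0.826 to 8.15, ribosomal protein contigs from 0.530 to 1.01, stress contigs from 0.550 to 1.15, lysosome and digestion contigs from 0.528 to 1.55 and transposon-derived protein contigs from 0.225 to 1.15.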

How the data were processed

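Per the labels and the study's methods, the authors mapped reads of 5 10x v3 libraries with Cell Ranger to Smed_v6 contigs placed on the planarian genome, and deposited UMI counts for every barcode, with no selection of cells. The submitters' processing notes name CASAVA 1.9, Cell Ranger and Seurat. The labels give 18 hpa, which the study's text gives as 16 hpa. Counts were summed over barcode classes as deposited. No doublet caller was run, and barcodes of over 2500 genes stayed out of cells. Sums of 5 libraries were tested with edgeR 4.0.16 (quasi-likelihood, TMM, filterByExpr, library as a block, Benjamini-Hochberg, 0.05), DESeq2 1.42.0 being an alternative. The code was tested on simulated data. Cells were clustered with leidenalg 0.10.2 (2000 variable contigs, 11 dimensions, 20 neighbours, resolution 1). Named were 76_0, the contigs just outside the rule, cluster leaders and, chosen after their values were seen, contigs sharing its barcodes. The cilium, muscle, neuron and functional lists rest on names in the study's supplement, the other cell type lists mostly on markers recalled from general knowledge. The study's supplements on bmp4 RNAi and on equinox RNAi pair contigs with names differently. Names from that on bmp4 RNAi were used, so the lists that rest on the supplement are uncertain. Members and lists were chosen with earlier results of these data known.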

Additional observations from a re-analysis of the deposited data

Results flagged for a closer look

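Barcodes of 1000 or more UMIs and fewer than 200 genes enter neither side of the rule nor either test. In them 76_0 had 47.9 CPM (80 UMIs over 1097 barcodes, exact 95% Poisson interval 38.0 to 59.6). Of these 80 UMIs, 78 were at 6 hpa and 67 in 1 barcode. The interval covers counting error only and not this uneven spread over barcodes.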

How the results depend on the processing

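The number of contigs that met the rule was 1, and the limits set it closely. It was 2 with empty droplets of 10 to 99 UMIs, 3 with 1 to 49 UMIs, 4 with 0.1 CPM added, 0 with 10 added, 0 with 200 empty-droplet UMIs required, 6 at 2-fold, 0 at 5-fold and 1 to 5 with a library left out, the highest without 6 hpa. Chosen after the data were seen, leaving 4_1 and 7_0 out of the totals gave 5 and empty droplets of 2 to 99 UMIs gave 2. The smallest ratio of 76_0 was 4.42 and moved to 1.80 with 10 added, and was 4.42 to 7.90 with a library left out, the highest without 0 hpa. In barcodes of 100 to under 300 over 300 to under 1000 UMIs, 76_0 passed the filter only without 0 hpa, where it was not called, so the other filtered alternatives did not test it. With no filter its log2 difference ran from -1.91 to 0.74 with a library left out and was 1.44, or 0.78 with library totals, without the 5 richest barcodes. Between cells of high and low mitochondrial share it was -1.42 without 6 hpa and with no filter. There it was called lower, as were 4178 of 25139 contigs, with 1823 called higher. The filtered fit without 6 hpa gave no value, since 76_0 did not pass it. In cluster 23 the level was 5.40 CPM in unc-22 RNAi alone. The largest variance over binomial variance was 0.9996 in barcodes of 50 to 99 UMIs, 1.06 at 20 to 49 and 4.75 from 100 to under 300. The causes of these changes were not tested. With 5 libraries and 184 empty-droplet UMIs, counting error limits each ratio. Both tests paired sums of the same library through the library term, and without that term the mitochondrial difference of 76_0 was -0.37 and not called.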
